A study of Mus musculus with 22 samples.

Results

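The transcripts described here are those of 10 genes named as quiescence factors of naive T cells: the Krüppel-like factors Klf2, Klf3 and Klf4, the forkhead factors Foxo1, Foxo3 and Foxp1, the antiproliferative proteins Tob1, Btg1 and Btg2, and the Schlafen protein Slfn2. They were chosen by name and matched by gene symbol, and all 10 were found among the 46603 genes of the deposited count table. All 10 also passed the filter on low counts, which left 21183 genes for testing. RNA was sequenced from 22 libraries of CD8+ T cells from mice, the cells that become cytotoxic T lymphocytes. Each of 8 mice gave cells as isolated from spleen and lymph nodes (called naive) and after 48 h of stimulation, and the KI and wt mice also gave cells after 24 h. Stimulation was with plate-bound anti-CD3, which engages the T cell receptor complex, and soluble anti-CD28, which engages a costimulatory receptor.

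The KI libraries came from 3 mice of the line labelled Tcaim KI Cd4Cre with the genotype label hocre. The wt libraries came from 3 mice of that same line with the genotype label wtcre. The libraries labelled KO came from 2 mice of the line Tcaim KO Cd4Cre with the genotype label hocre. Wt mice of the KO line were not analysed here, so line and genotype cannot be told apart for them. Cd4Cre stands in the line name of every group, controls included, and Cre driven by Cd4 sequences acts from the thymocyte stage at which CD4 and CD8 are both present, so it reaches CD4+ and CD8+ T cells alike. Mice of KI and wt were paired in experiments 1, 3 and 5, and the mice labelled KO belonged to experiments 1 and 5. The KI and wt mice of experiments 1 and 3 were male and those of experiment 5 female, and both mice labelled KO were female, so that in experiment 1 the KO label and sex cannot be told apart. The age of the mice is not given in the sources used here. Naive cells were not cultured, so that stimulation and time in culture cannot be told apart either.

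Tcaim encodes a mitochondrial protein that is named as an inhibitor of T cell activation. In CPM, counts scaled to library size with TMM factors, it lay between 138 and 260 in the KI libraries and between 8.38 and 15.2 in the wt libraries. The libraries labelled KO had 14.9 and 19.6 CPM of Tcaim when naive, against 14.6 to 15.2 in wt, and 5.99 and 11.7 CPM at 48 h, against 9.03 to 12 in wt. The gene-level count therefore did not check the KO label. Total counts ran from 62551905 to 93489115 per library. The 6 CD8 T cell markers (Cd8a, Cd8b1, Cd3d, Cd3e, Cd3g and Cd247) were counted in every library and summed to between 2140 and 4790 CPM.

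Quiescence in a naive T cell is an actively kept state of small size, low metabolism and no division. KLF2 and FOXO1 keep naive cells circulating by sustaining transcription of genes such as S1pr1 and Il7r, and FOXO1 also acts on Klf2 itself. Signals through the T cell receptor and CD28 activate AKT, which phosphorylates FOXO proteins and moves them out of the nucleus, a step that RNA levels do not show. BTG and TOB proteins bind the CCR4-NOT deadenylase and speed the decay of messenger RNA. Loss of SLFN2 in mice leaves T cells unable to stay quiescent.

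Promoter sequences of all 10 members were found in RefSeq, with 3 start sites for Foxp1 and 1 for each of the others. The 250 bases before the start site are shown for 4 members that differed between KI and wt cells or that carry a motif few promoters have, 5′ to 3′ on the gene's own strand, in build GRCm38.p6. Klf3 differed between KI and wt cells as well, and its sequence is not shown. Capitals mark matches on either strand to the motifs searched: CACCC (the core bound by KLF proteins), TGTTTAC (bound by FOXO and FOXP proteins), TGACGTCA (bound by CREB and ATF proteins) and TATAAA (the TATA box).
Klf2 chr8:72318812-72319061, plus strand: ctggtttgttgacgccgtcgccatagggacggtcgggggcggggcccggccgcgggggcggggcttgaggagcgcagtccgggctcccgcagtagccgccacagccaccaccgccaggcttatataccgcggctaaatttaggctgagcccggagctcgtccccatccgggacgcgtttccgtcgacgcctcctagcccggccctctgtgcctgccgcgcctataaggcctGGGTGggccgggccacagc
Tob1 chr11:94211204-94211453, plus strand: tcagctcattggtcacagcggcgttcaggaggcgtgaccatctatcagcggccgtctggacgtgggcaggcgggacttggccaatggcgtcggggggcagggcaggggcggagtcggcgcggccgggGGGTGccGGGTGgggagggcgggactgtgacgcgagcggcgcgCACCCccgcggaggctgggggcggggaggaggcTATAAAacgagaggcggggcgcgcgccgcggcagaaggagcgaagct
Btg1 chr10:96616751-96617000, plus strand: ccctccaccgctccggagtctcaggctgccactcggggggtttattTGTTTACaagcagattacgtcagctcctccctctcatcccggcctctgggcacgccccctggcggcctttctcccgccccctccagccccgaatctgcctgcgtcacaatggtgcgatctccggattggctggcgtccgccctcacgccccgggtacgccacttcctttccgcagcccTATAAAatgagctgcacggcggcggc
Btg2 chr1:134079156-134079405, minus strand: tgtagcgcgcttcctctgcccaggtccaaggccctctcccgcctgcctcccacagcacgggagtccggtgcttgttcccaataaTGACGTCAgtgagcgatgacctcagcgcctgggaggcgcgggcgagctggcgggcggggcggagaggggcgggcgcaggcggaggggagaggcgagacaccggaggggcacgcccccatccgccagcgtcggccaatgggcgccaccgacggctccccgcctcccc

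In windows from 250 bases before to 50 bases after the start, the match to TGTTTAC in Btg1 lay 204 to 198 bases before the start, and no other member had one. That motif stood in 3.65% of 32817 promoters of the same length. TGACGTCA was found in Btg2 alone, 166 to 159 bases before the start, and in 1.79% of all promoters. TATAAA stood 26 to 21 bases before the start of Btg1 and 47 to 42 bases before that of Tob1, and in 13.6% of all promoters. CACCC was found in Klf2, Klf3, Foxp1, Tob1 and Slfn2, and in 57.5% of all promoters. CCACACCC, a longer KLF motif found in 3.56% of promoters, and CTAAAAATA, a MEF2 motif found in 0.518%, matched no member. These are matches of letters and no measure of binding.

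Per length, the members spanned a wide range in naive wt cells. In the deposited FPKM values, Btg1 was highest at 293 ± 24 (SD, n = 3), followed by Klf2 at 283 ± 22, Slfn2 at 217 ± 52 and Btg2 at 112 ± 14. The first 3 overlapped within their SDs. Foxo1 followed at 47.7 ± 2.6 FPKM, Klf3 at 31.6 ± 1.1, Tob1 at 22.4 ± 4, Foxp1 at 21.2 ± 1.8 and Foxo3 at 16.2 ± 1.6, and Klf4 was lowest at 12 ± 2.9. Tob1 and Foxp1 overlapped within their SDs, as did Foxo3 and Klf4. After 48 h of stimulation the order in wt cells had changed: Slfn2 was first at 139 ± 79 FPKM and Btg1 second at 60.6 ± 15, while Klf2 had moved from second to the seventh place at 10 ± 2.2. At 48 h Slfn2 and Btg1 overlapped within their SDs, as did Klf2 and Foxo3 in the sixth place at 12 ± 1.9. In KI cells at 48 h, Klf2 held the fourth place at 29.7 ± 2.8 FPKM.

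The first question was how the members changed when wt cells were stimulated. In wt cells 8 of the 10 were lower at 24 h than in naive cells, and the same count was lower at 48 h: the 3 Krüppel-like factors, Foxo1, Foxo3, Tob1, Btg1 and Btg2. Klf2 and Klf4 had the largest changes among the members at both times. Of all genes tested, 22% were lower and 26.3% higher in wt at 24 h, and 26.8% were lower and 29.6% higher at 48 h, by edgeR's quasi-likelihood test at an adjusted p under 0.05. The members' median log2 fold change was -1.78 at 24 h and -1.93 at 48 h, against -0.05 and -0.04 over all genes. None of the 8 calls at 24 h was lost in any alternative run. CPM gives shares of a library, and the total RNA of a cell is not given in the sources used here. In these bulk samples, fewer cells of a type, less of a transcript per cell and more of other RNA cannot be told apart.

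**Figure D1:**
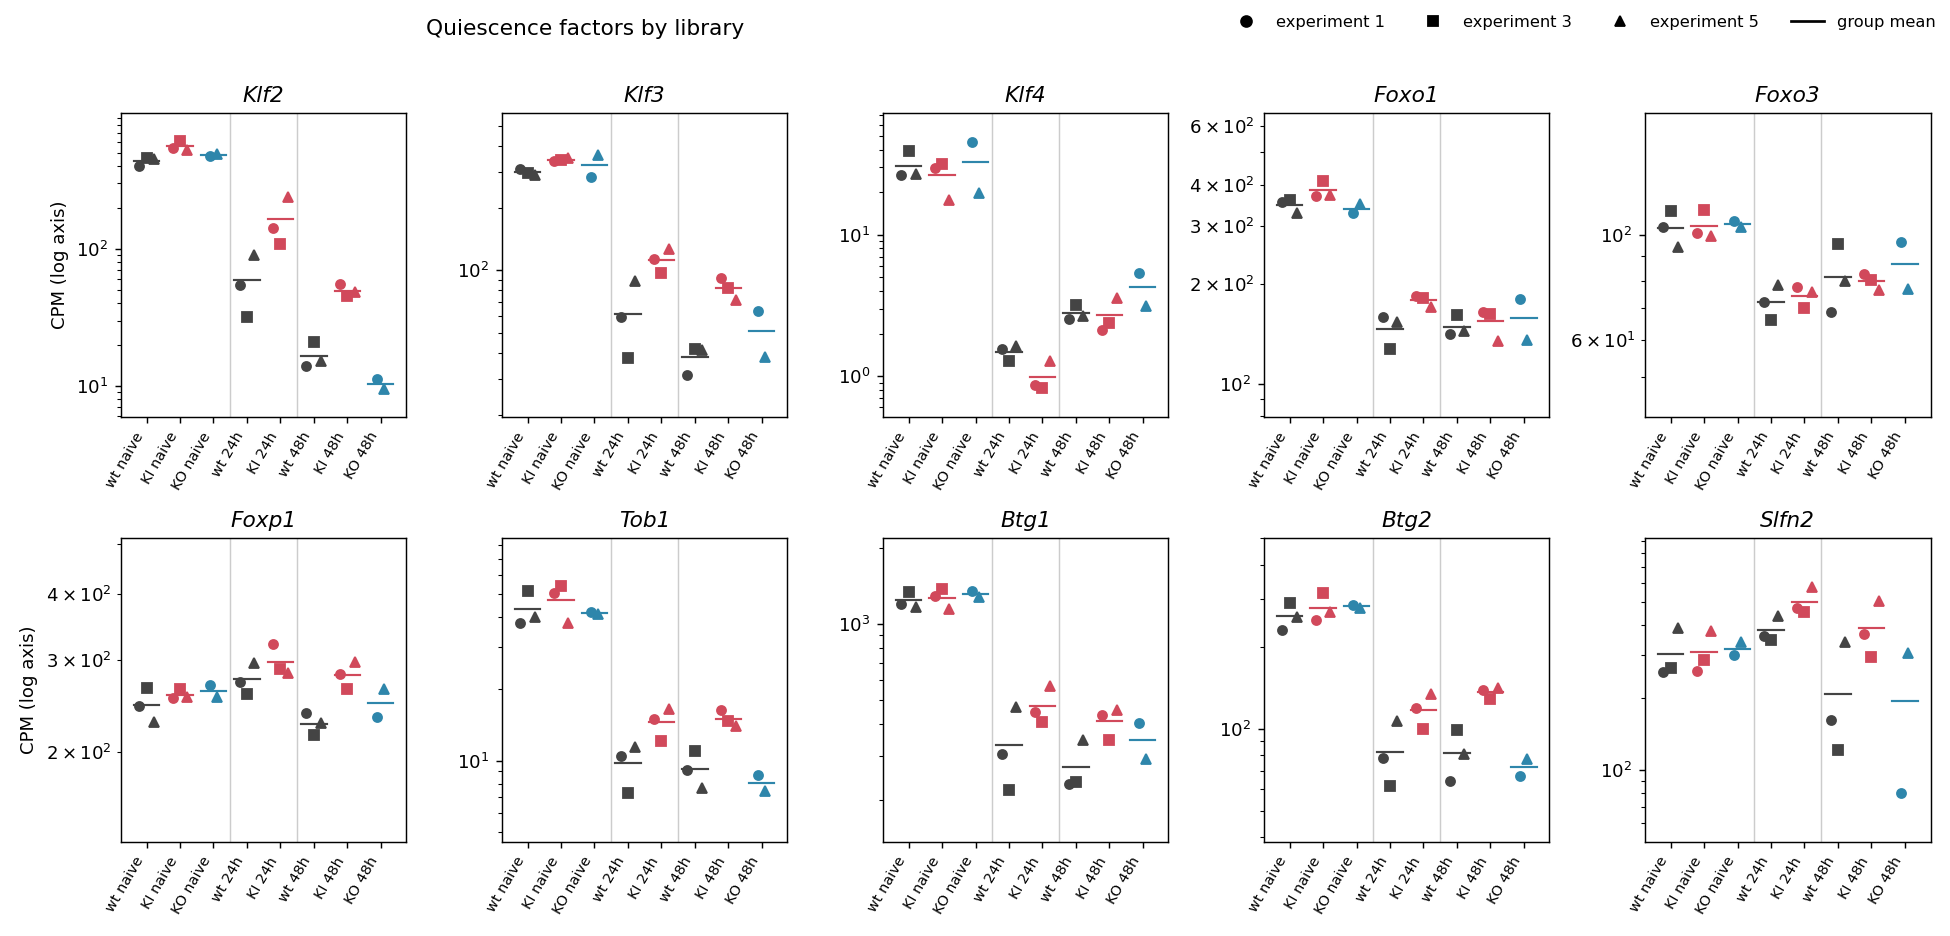
CPM of each member in each of the 22 libraries, on a log axis with its own range for each gene. Points are mice, their shapes the experiments, and lines the group means; KO marks the libraries labelled KO. All stimulated libraries lie below all naive libraries for Klf2, Klf3, Klf4, Foxo1, Tob1, Btg1 and Btg2, while Foxo3, Foxp1 and Slfn2 overlap.

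Klf2 (ENSMUSG00000055148, chr8:72319033-72321656, plus strand, GRCm38), the factor that sustains S1pr1 transcription in naive T cells, was counted in wt cells at 404, 463 and 454 CPM when naive, in experiments 1, 3 and 5. It stood at 54.8, 31.6 and 90.3 CPM at 24 h and at 13.9, 20.8 and 15.1 CPM at 48 h. The 3 times did not overlap in wt. Klf2 fell by 2.90 on the log2 scale at 24 h (SE 0.305, edgeR adjusted p = 4.31e-07) and by 4.73 at 48 h (SE 0.333, edgeR adjusted p = 1.79e-09), a fold of 26.5. Between 24 h and 48 h in wt, Klf2 alone among the members passed the test, and fell by a further 1.83 (SE 0.295, edgeR adjusted p = 0.00106). Of all genes, 3.38% were lower and 4.06% higher in that comparison. Without the wt mouse of experiment 1 this later step was -1.76 with an edgeR adjusted p of 0.0512.

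Klf3 (ENSMUSG00000029178, chr5:64803388-64832901, plus strand), a KLF protein that mainly represses transcription, was counted at 310, 297 and 290 CPM in naive wt cells. It stood at 59.4, 37.7 and 88.5 CPM at 24 h and at 31.3, 41.5 and 41.2 CPM at 48 h. All stimulated wt libraries lay below all naive ones, and the ranges of 24 h and 48 h overlapped. Klf3 fell by 2.27 (SE 0.24, edgeR adjusted p = 4.64e-07) and by 2.98 (SE 0.247, edgeR adjusted p = 1.5e-08) on the log2 scale. An exon of Klf3 overlaps the opposite-strand gene Gm20033, and the use of strand in counting is not given in the sources used here.

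Klf4 (ENSMUSG00000003032, chr4:55527143-55532466, minus strand), which limits division of CD8+ T cells, was the least abundant member. Naive wt cells had 26.4, 39 and 26.7 CPM, falling to 1.55, 1.27 and 1.62 CPM at 24 h, and standing at 2.53, 3.17 and 2.67 CPM at 48 h. Klf4 was the one member with its lowest level at 24 h and a higher level at 48 h in every KI and wt mouse. The drop of 4.37 at 24 h (SE 0.351, edgeR adjusted p = 1.68e-08) was the largest among the members, and at 48 h the log2 fold change was -3.46 (SE 0.335, edgeR adjusted p = 9.66e-08). The later increase was 0.91 in wt (SE 0.318, edgeR adjusted p = 0.0922), which did not pass, and 1.44 in KI (SE 0.325, edgeR adjusted p = 0.022). DESeq2 called the increase in wt (adjusted p = 0.0401), and limma did not call that in KI (adjusted p = 0.0587).

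Of the forkhead factors, Foxo1 and Foxo3 fell in wt and Foxp1 was not called. Foxo1 (ENSMUSG00000044167, chr3:52268336-52353221, plus strand), which sustains Il7r transcription, ranged from 329 to 360 CPM in naive wt cells, from 127 to 159 CPM at 24 h and from 141 to 161 CPM at 48 h. It fell by 1.24 (SE 0.121, edgeR adjusted p = 1.7e-07) and by 1.23 (SE 0.121, edgeR adjusted p = 1.24e-07). Between 24 h and 48 h its log2 change was 0.02 (SE 0.119, edgeR adjusted p = 0.965). An antisense gene, Gm20402, overlaps a Foxo1 exon. Foxo3 (ENSMUSG00000048756, chr10:42181841-42276755, minus strand), a related factor that acts on survival genes, ranged from 94.2 to 112 CPM in naive wt cells and from 65.9 to 78.4 CPM at 24 h. At 48 h Foxo3 ranged from 68.8 to 95.8 CPM in wt and overlapped with naive cells. Its log2 fold change was -0.52 at 24 h (SE 0.122, edgeR adjusted p = 0.00186) and -0.34 at 48 h (SE 0.122, edgeR adjusted p = 0.023). The call for Foxo3 at 48 h was lost without the wt mouse of experiment 1 (edgeR adjusted p = 0.236), with these 2 groups fitted alone (0.0657) and with no filter on low counts (0.052).

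Foxp1 (ENSMUSG00000030067, chr6:98925338-99522721, minus strand), which restrains the response of naive T cells to IL-7, had 228 to 265 CPM in naive wt cells, 258 to 296 at 24 h and 215 to 237 at 48 h. The groups overlapped with naive cells at both times. Its log2 fold changes of 0.16 (SE 0.0956, edgeR adjusted p = 0.163) and -0.12 (SE 0.0956, edgeR adjusted p = 0.308) did not pass the test, and the first became -0.02 with upper-quartile scaling. With that scaling the value at 48 h was -0.34 (edgeR adjusted p = 0.00598), and limma also called it at -0.20. The gene-level count of Foxp1 includes exons shared with Gm20696 and a miRNA gene on the same strand, and isoforms of Foxp1 were not told apart.

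The BTG and TOB transcripts fell together. Btg1 (ENSMUSG00000036478, chr10:96617006-96622809, plus strand), the most abundant member in CPM in naive cells, ranged from 1170 to 1340 CPM in naive wt cells, from 219 to 466 at 24 h and from 231 to 347 at 48 h. Its log2 fold changes were -1.90 (SE 0.228, edgeR adjusted p = 2.07e-06) and -2.18 (SE 0.231, edgeR adjusted p = 2.79e-07). Btg2 (ENSMUSG00000020423, chr1:134075170-134079120, minus strand), a close relative of Btg1, had 230, 290 and 256 CPM in naive wt cells, 78.1, 61.5 and 107 CPM at 24 h and 64.4, 98.7 and 81 CPM at 48 h. It was 3.15 times lower at 24 h and 3.18 times lower at 48 h (log2 fold change -1.67, SE 0.183, edgeR adjusted p = 4.58e-07). Tob1 (ENSMUSG00000037573, chr11:94211454-94215495, plus strand), which also blocks cytokine transcription in resting T cells, had 37.9, 51.4 and 40.1 CPM in naive wt cells. It stood at 10.5, 7.3 and 11.4 CPM at 24 h and at 9.09, 11 and 7.68 CPM at 48 h, which were changes of -2.15 (SE 0.193) and -2.22 (SE 0.194, edgeR adjusted p = 2.7e-08). None of these 3 genes differed between 24 h and 48 h in wt by the test, with log2 fold changes from -0.28 to -0.01.

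Slfn2 (ENSMUSG00000072620, chr11:83065112-83070678, plus strand) stood apart from this pattern. Naive wt cells had 256, 266 and 391 CPM, the 24 h cells 362, 346 and 436 CPM and the 48 h cells 161, 121 and 340 CPM, in experiments 1, 3 and 5. Experiment 5 was highest at each time. Within each wt mouse Slfn2 was above naive at 24 h, by 0.50, 0.38 and 0.16 on the log2 scale, and below naive at 48 h, with changes of -0.67, -1.13 and -0.20. Neither change passed without a block (log2 fold changes 0.32 with SE 0.379 and -0.55 with SE 0.38, edgeR adjusted p = 0.499 and 0.225). With the mouse as a block, the change at 48 h passed at an edgeR adjusted p of 0.0435.

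**Figure D2:**
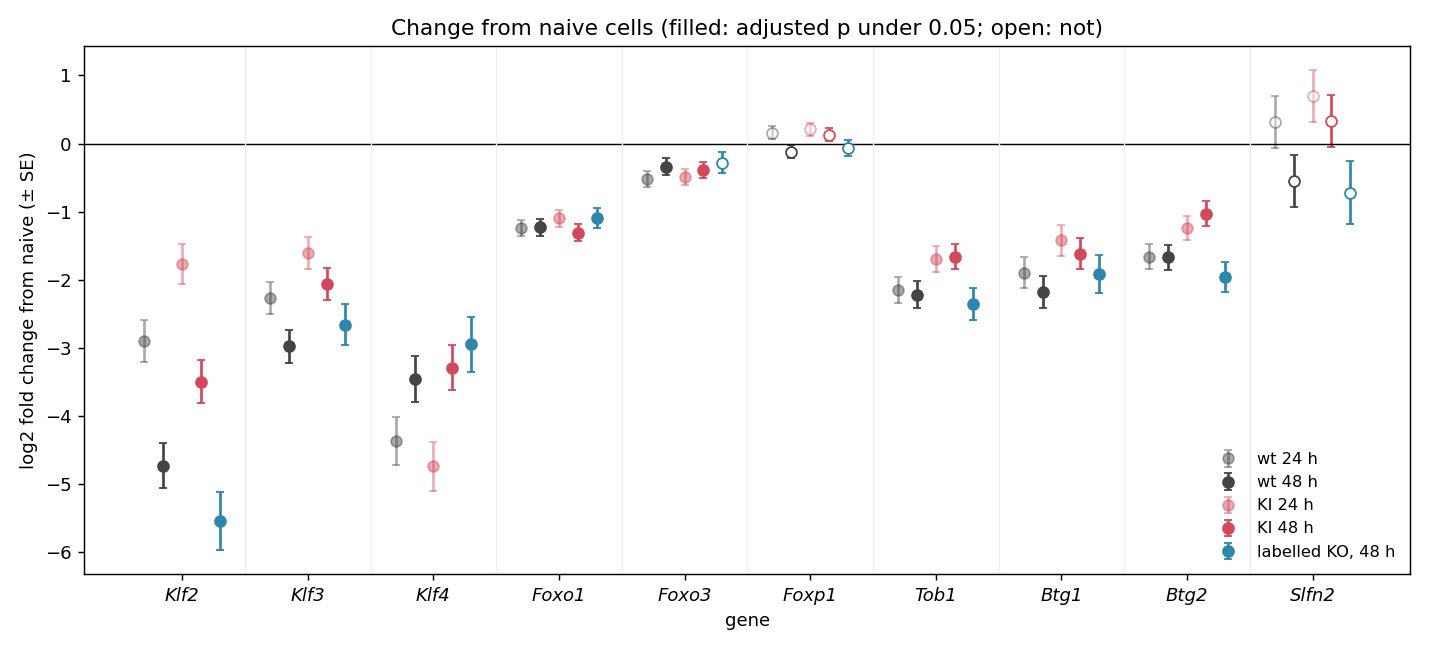
Log2 fold change of each member from naive cells of the same genotype, with its standard error, in wt and KI at 24 h and 48 h and in the libraries labelled KO at 48 h. Filled points passed edgeR's test; Foxp1 and Slfn2 have open points throughout, and Klf2 lies between -1.77 and -5.55.

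The members that were called in wt fell in KI cells as well. In KI, 8 of 10 members were lower at 24 h and 8 at 48 h, while 15.8% of all genes were lower and 22.9% higher at 24 h, and 22.1% were lower and 26.6% higher at 48 h. The members' median was -1.33 at 24 h and -1.47 at 48 h. In KI cells Klf2 went from 545, 611 and 522 CPM when naive to 143, 109 and 240 CPM at 24 h and to 55, 45.2 and 48.5 CPM at 48 h. These were log2 fold changes of -1.77 (SE 0.292, edgeR adjusted p = 0.000106) and -3.50 (SE 0.313, edgeR adjusted p = 5.7e-08), folds of 3.41 and 11.3 against 7.47 and 26.5 in wt. The other called members had log2 fold changes in KI at 48 h of -2.06 (Klf3), -3.29 (Klf4), -1.31 (Foxo1), -0.39 (Foxo3), -1.66 (Tob1), -1.62 (Btg1) and -1.03 (Btg2). Between 24 h and 48 h in KI, Klf2 fell (log2 fold change -1.72, SE 0.292, edgeR adjusted p = 0.00557) and Klf4 rose, where 0.954% of all genes were lower and 1.72% higher. Both of these calls depended on the mice: leaving out the KI mouse of experiment 1 or 5 left no member called between 24 h and 48 h, and leaving out that of experiment 3 left Klf2. Foxo3 in KI at 48 h (log2 fold change -0.39) lost its call without any 1 of the 3 KI mice, with edgeR adjusted p up to 0.123, and at 24 h without that of experiment 3 (edgeR adjusted p = 0.0973). With the mouse as a block, Slfn2 also passed in KI at 24 h (edgeR adjusted p = 0.0373), where it was higher in 3 of 3 mice, by 0.87, 0.66 and 0.61.

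In the libraries labelled KO, 7 of 10 members were lower at 48 h than in naive cells, where 20.4% of all genes were lower and 23.7% higher. Foxo3, with a log2 change of -0.28 (SE 0.149, edgeR adjusted p = 0.13), was the member called in wt and KI that was not called here. Klf2 went from 478 and 490 CPM to 11.2 and 9.5 CPM, a log2 change of -5.55 (SE 0.424, edgeR adjusted p = 1.99e-08). Slfn2 differed between the mice, with 80.1 CPM in experiment 1 and 307 CPM in experiment 5 at 48 h, from 300 and 340 CPM in the naive cells. With the mouse as a block its change passed, at -1.02 (edgeR adjusted p = 0.0201). Experiment 5, where Slfn2 was highest in KI and wt at 48 h, held the female KI and wt mice, and both mice labelled KO were female.

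Genes linked to freshly handled tissue moved with these changes. The summed CPM of 14 immediate-early genes, among them Fos, Jun, Junb, Dusp1 and Ppp1r15a, was 2910 to 3930 in naive libraries and 479 to 1160 in stimulated ones. In wt, 10 of the 14 were lower at 24 h and none higher, with a median of -3.54. Of the 6 CD8 T cell markers, 4 were lower in wt at 24 h and 5 at 48 h, with medians of -0.51 and -0.72. In KI 3 were lower at 24 h and 4 at 48 h, and in the libraries labelled KO 5 at 48 h. None of the 6 was higher in these comparisons. Markers of several other cell types were lower after stimulation too. The summed level of 5 B cell markers was 713 to 2330 CPM in naive and 459 to 965 CPM in stimulated libraries, with overlap. In wt, 3 of the 5 were lower at 24 h and 5 at 48 h, and in KI none at 24 h and 1 at 48 h. The 6 monocyte and macrophage markers summed to 86.4 to 251 CPM in naive and 13.2 to 45.7 CPM in stimulated libraries, and all 6 were lower in wt at 24 h. Klf4 is also transcribed in monocytes, and Klf2 and the BTG genes in B cells. The 5 dendritic cell markers summed to 10.2 to 44.7 CPM in naive libraries and to 4.73 to 11.4 in stimulated ones, with overlap, the 4 neutrophil markers to 2.7 to 41.6 and 0.0108 to 1.69, and the 4 erythroid markers to 1.72 to 51.1 and 0.29 to 1.59. Of 4 NK cell markers, 3 were lower in wt at 24 h and at 48 h, with medians over the 4 of -3.97 and -5.34: in wt, mean levels went from 13.2 to 0.243 CPM for Ncr1, from 16 to 0.515 for Klrb1c and from 7.01 to 0.879 for Klre1 at 24 h. Their sum overlapped (49 to 163 CPM in naive and 45.7 to 183 in stimulated libraries). It includes Eomes, which activated CD8+ T cells also transcribe and which had means of 39 CPM in naive wt cells and 119 at 48 h. The sums of CD4 T cell markers (4 genes, 41 to 283 and 32.3 to 211 CPM) and of stroma and endothelium markers (5 genes, 170 to 204 and 68.1 to 206 CPM) overlapped as well. Defining markers at 0 in a whole group were Ly6g, Retnlg and Siglech at 48 h in the libraries labelled KO, Col3a1 in wt at 24 h and 48 h, and Cdh5 in wt at 24 h and in the libraries labelled KO at 48 h. The part of these genes and cells in the members' fall was not tested.

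The second question was whether the members differed between KI and wt cells. At 48 h, 4 of 10 members were higher in KI than in wt: Klf2, Klf3, Btg2 and Tob1, where 4.2% of all genes differed in either direction. The members' median was 0.65 against 0.00 over all genes. Before stimulation edgeR, DESeq2 and limma called none of the 10, where edgeR called 0.0803% of all genes. None of the 10 had an unadjusted p under 0.05 in edgeR, against 440 of all 21183 genes. At 24 h edgeR called none either, where 1 gene in all (0.00472%) differed. Unadjusted, 6 members had a p under 0.05 in edgeR, against 1909 of all 21183 genes. In KI 9 members had a higher mean, with Klf4 the exception, where the median log2 change over all genes was 0.01. KI and wt libraries are shared between these comparisons and those with naive cells.

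**Figure D3:**
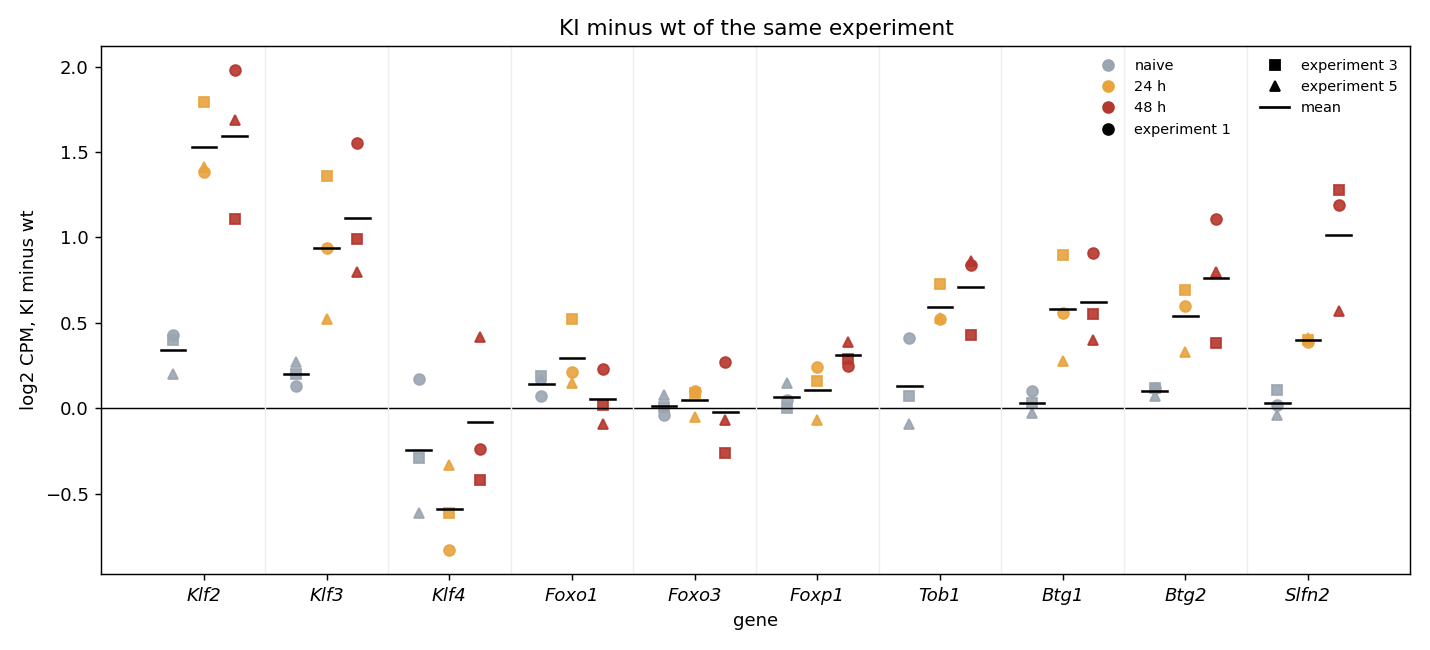
Difference in log2 CPM between the KI and the wt library of the same experiment, for each member in naive cells, at 24 h and at 48 h. Points are experiments and lines their means; for Klf2 all 3 points lie between 1.38 and 1.79 at 24 h and between 1.11 and 1.98 at 48 h, and for Foxo3 they lie on both sides of 0 at every time.

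Klf2 was higher in KI than in wt in every experiment at each time. The difference within experiments 1, 3 and 5 was 0.43, 0.40 and 0.20 on the log2 scale in naive cells, 1.38, 1.79 and 1.41 at 24 h and 1.98, 1.11 and 1.69 at 48 h. At 48 h the KI libraries held 49.6 ± 5 CPM (SD, n = 3) and the wt libraries 16.6 ± 3.7, with no overlap. The log2 fold change was 0.34 in naive cells (SE 0.284), 1.48 at 24 h (SE 0.29, edgeR adjusted p = 0.188) and 1.58 at 48 h (SE 0.293, edgeR adjusted p = 0.00508). At 24 h Klf2 was called by DESeq2's Wald test (1.43, adjusted p = 0.0014), and by edgeR without the wt mouse of experiment 5 (1.92, adjusted p = 0.0195).

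Klf3 had 91.7, 82.3 and 71.9 CPM in KI cells at 48 h, against 31.3, 41.5 and 41.2 CPM in wt, and the groups did not overlap. It was higher by 1.11 (SE 0.233, edgeR adjusted p = 0.0111), and at 24 h by 0.86 (SE 0.231, edgeR adjusted p = 0.381), with 114, 96.8 and 127 CPM in KI against 59.4, 37.7 and 88.5 in wt. Klf4 was not called. At 48 h it had 2.13, 2.36 and 3.59 CPM in KI and 2.53, 3.17 and 2.67 CPM in wt, a log2 change of -0.05 (SE 0.312), and at 24 h it was lower in KI in 3 of 3 experiments, with log2 differences of -0.83, -0.61 and -0.33, without passing the test.

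Btg2 had 139, 129 and 141 CPM in KI cells at 48 h, against 64.4, 98.7 and 81 CPM in wt. It was higher in KI by 0.74 (SE 0.18, edgeR adjusted p = 0.024). In KI its mean was 117 ± 17.3 CPM at 24 h and 136 ± 6.63 at 48 h, with overlapping libraries. Tob1 had 16.3, 14.7 and 14 CPM in KI cells at 48 h, against 9.09, 11 and 7.68 CPM in wt, and was higher by 0.70 (SE 0.187, edgeR adjusted p = 0.0414). The KI and wt libraries overlapped for neither gene. Btg1 had 346 to 457 CPM in KI and 231 to 347 in wt at 48 h, so that the highest wt library reached the lowest KI library, and its log2 change of 0.61 (SE 0.222, edgeR adjusted p = 0.142) did not pass. Without the wt mouse of experiment 5 it was called (0.82, edgeR adjusted p = 0.0288). Within experiments Btg1 was higher in KI by 0.91, 0.55 and 0.40.

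Slfn2 had 367, 295 and 504 CPM in KI cells at 48 h, against 161, 121 and 340 CPM in wt, and the groups overlapped, with experiment 5 highest in both. Within experiments the difference was 1.19, 1.28 and 0.57. The log2 fold change was 0.91 (SE 0.382, edgeR adjusted p = 0.212), and with the experiment as a block it was 0.98 with an edgeR adjusted p of 0.0378. From naive to 48 h Slfn2 was above naive in each KI mouse, by 0.50, 0.04 and 0.41, and below naive in each wt mouse. The difference between these 2 responses was 0.88 (SE 0.537, edgeR adjusted p = 0.65), and 0.287 was its edgeR adjusted p with the mouse as a block.

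No forkhead factor was called by edgeR between KI and wt. Foxp1 had 263 to 297 CPM in KI cells at 48 h and 215 to 237 in wt, without overlap, and a log2 change of 0.31 (SE 0.0957, edgeR adjusted p = 0.0771). DESeq2 (adjusted p = 0.0386) and limma (adjusted p = 0.0374) called it. Foxo1 differed by 0.29 at 24 h (SE 0.119, edgeR adjusted p = 0.502) and by 0.06 at 48 h (SE 0.119), and Foxo3 by 0.04 (SE 0.122) and -0.03 (SE 0.122). Counted by overlap alone, every KI library lay above every wt library for 3 members in naive cells, against 6.56% of all genes, for 5 at 24 h, against 10.8%, and for 5 at 48 h, against 10.8%. Klf2 and Klf3 were among them each time.

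The calls between KI and wt at 48 h depended on which mice were included. Without the KI mouse or the wt mouse of experiment 1, none of the 10 was called, with 89 and 114 genes called in all in place of 889. Without the KI mouse of experiment 3, Klf2 alone was called, and without that of experiment 5, Klf2 and Klf3. The log2 fold change of Klf2 stayed between 1.46 and 1.77 in all alternatives, with an adjusted p of at most 0.0824, reached in edgeR. That of Klf3 ran from 0.99 to 1.19, that of Btg2 from 0.60 to 0.91 and that of Tob1 from 0.58 to 0.84. Tob1 also lost its call with limma (adjusted p = 0.0515) and without the wt mouse of experiment 5 (edgeR adjusted p = 0.163), where the count of 4 stayed because Foxp1 and Btg1, respectively, were called. When the KI and wt libraries at 48 h were fitted alone, Klf2 and Klf3 were called. The tests of whether the response to stimulation differed between KI and wt called no member, at 24 h (0% of all genes) or at 48 h (0.387% of all genes). The difference in response was 1.13 at 24 h and 1.23 at 48 h for Klf2 (SE 0.403 and 0.404, edgeR adjusted p = 1 and 0.251), and 0.91 at 48 h for Klf3 (SE 0.326, edgeR adjusted p = 0.313). Unadjusted, 1 member at 24 h and 4 at 48 h had a p under 0.05 in edgeR, against 692 and 2064 of all 21183 genes. DESeq2 and limma called none. With KI and wt naive and 48 h libraries fitted alone, Klf2 and Klf3 passed at 48 h.

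Of the markers of other cells, Pecam1 alone was called between KI and wt at 48 h. The B cell markers summed to 506 to 755 CPM in KI and 459 to 659 in wt, the monocyte and macrophage markers to 14.2 to 22.2 and 14 to 23.1, and the immediate-early genes to 645 to 1160 and 752 to 1110, each with overlap. The B cell sum was mostly Ighm, with means of 497 CPM in KI and 484 in wt, while Ms4a1 had 27.7 and 11.7, Cd79a 20.9 and 9.12 and Pax5 19.5 and 10.2. The median log2 differences between KI and wt at 48 h were 0.93 for the B cell, 1.01 for the NK cell and 0.66 for the monocyte and macrophage markers, in the same direction as those of the members, with none of these genes called. The list of stroma and endothelium markers (5 genes) did not overlap, at 147 to 196 CPM in KI and 86.5 to 92.2 in wt. That was Pecam1, which naive T cells also carry, with a log2 change of 0.96 (SE 0.139, edgeR adjusted p = 0.000898), while Cdh5 and Kdr were at or below 0.0715 CPM in these libraries. The part of these cells in the result was not tested.

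The third comparison set the libraries labelled KO beside wt. None of the 10 members was called in naive cells, where 0.0236% of all genes differed, or at 48 h, where 0.0283% differed. DESeq2 and limma called none. No member had an unadjusted p under 0.05 in edgeR, against 285 of all 21183 genes in naive cells and 1463 at 48 h. In naive cells the members' log2 fold changes lay between -0.05 and 0.14, and at 48 h between -0.68 and 0.60. The value furthest below 0 at 48 h was that of Klf2, with 11.2 and 9.5 CPM against 13.9, 20.8 and 15.1 in wt (SE 0.329, edgeR adjusted p = 0.723). The log2 difference was -0.31 within experiment 1 and -0.66 within experiment 5. Without the mouse labelled KO of experiment 5, Slfn2 was called and 4770 genes were called in all, but this leaves 1 library labelled KO at each time, assumed to vary like the other groups. The 2 naive libraries labelled KO differed in markers of other cells: the lower and the higher sum were 713 and 2330 CPM for B cell, 41 and 283 for CD4 T cell and 3070 and 4790 for CD8 T cell markers, and the median log2 difference of the CD4 T cell markers from wt was 1.25 in naive cells, with none called. The part of these cells in the comparison was not tested. Since Tcaim was below the wt range in 1 of the 4 libraries labelled KO, these values compare the libraries as labelled.

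Of 15 genes known as targets of KLF2 or FOXO1 in T cells, 8 were lower and 3 higher in wt at 48 h. Over all genes those shares were 26.8% and 29.6%, and the median of the 15 was -0.76. Lower were S1pr1, the receptor that lets lymphocytes leave lymphoid tissue (-3.90, SE 0.461), the integrin gene Itgb7 (-2.10, SE 0.27) and Il7r, which encodes a receptor chain for the survival cytokine IL-7 (-3.32, SE 0.484). Higher were Gabarapl1, an autophagy gene (3.25, SE 0.208), the inhibitory receptor gene Ctla4 (3.17, SE 0.361) and the chemokine receptor gene Ccr7 (0.73, SE 0.138). Between KI and wt at 48 h, 1 of the 15 was higher and none lower, where 4.2% of all genes differed, with a median of 0.55: Sesn1, a stress-response gene (0.91, SE 0.174, edgeR adjusted p = 0.00615). S1pr1 was at 1.48 (SE 0.42, edgeR adjusted p = 0.0541) and did not pass. In the libraries labelled KO against the same wt libraries at 48 h the median of the 15 was 0.51, with none called.

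**Figure D4:**
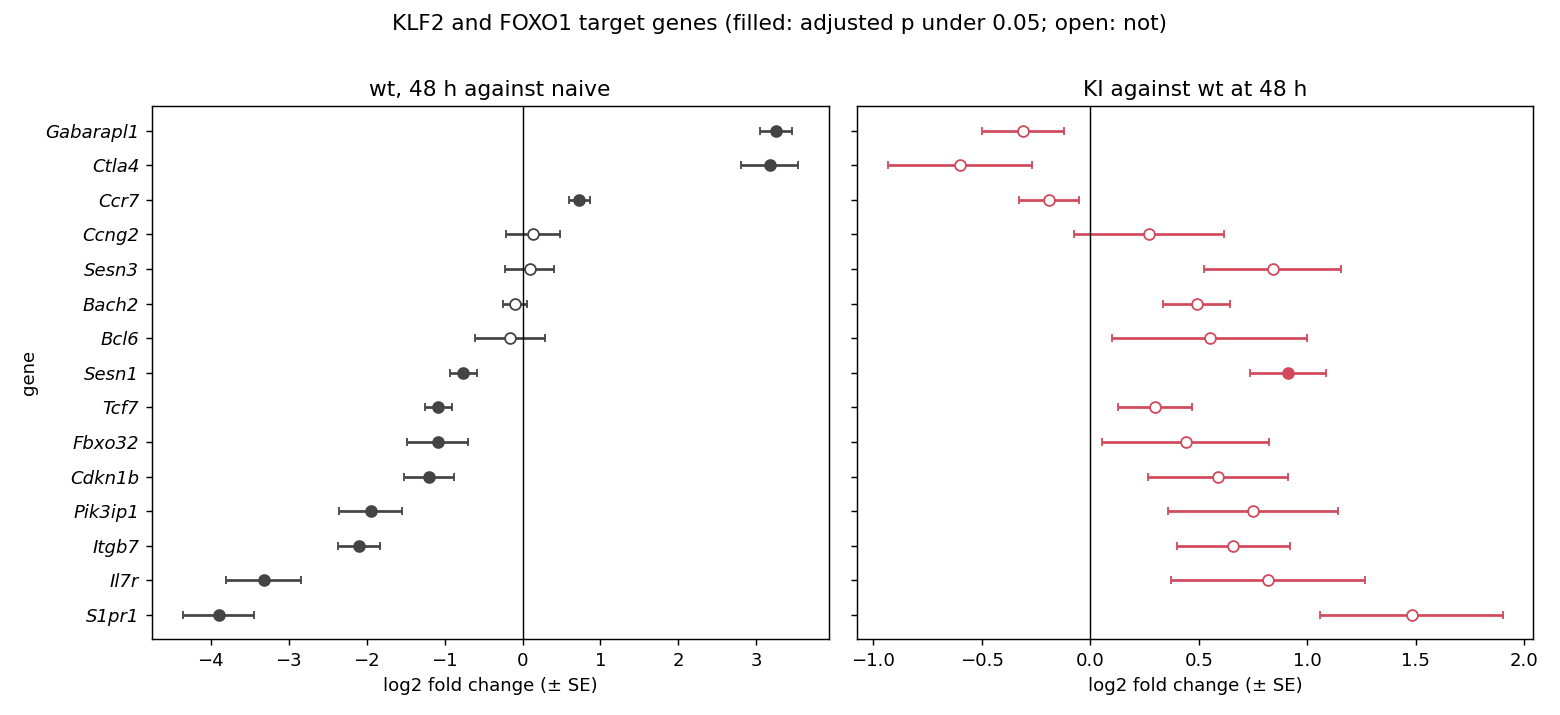
Log2 fold change and standard error of 15 genes known as targets of KLF2 or FOXO1, in wt at 48 h against naive (left) and in KI against wt at 48 h (right); both panels use the wt libraries at 48 h. Filled points passed edgeR's test: 8 lower and 3 higher on the left, Sesn1 on the right.

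Relatives of the members were counted the same way, where 26.8% of all genes were lower and 29.6% higher in wt at 48 h. Of 14 other KLF genes 11 were tested, and 4 were lower and none higher in wt at 48 h: Klf13 (-1.43, SE 0.13), Klf6 (-1.56, SE 0.206), Klf11 (-2.28, SE 0.323) and Klf7, which the rule of 3 genes by smallest p leaves out. None differed between KI and wt at 48 h, with a median of -0.36. Of 3 other BTG and TOB genes 2 were tested, and Tob2 was lower in wt at 48 h (-0.56, SE 0.212, edgeR adjusted p = 0.0303). The list of CCR4-NOT and PAN deadenylase genes also held poly(A)-binding protein genes, such as Pabpc4. CCR4-NOT is the complex on it that BTG and TOB proteins bind. Of the 16 tested, 5 were higher and 4 lower in wt at 48 h, near the shares over all genes (29.6% higher and 26.8% lower). Among them were Cnot9 (1.62, SE 0.153), Pabpc4 (1.32, SE 0.146) and Pan3 (-1.35, SE 0.206). None of the 16 differed between KI and wt at 48 h. Of 5 other FOXO and FOXP genes 3 were tested, with 2 lower and 1 higher in wt at 48 h and none called between KI and wt.

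Of 6 other Schlafen genes tested, 4 were lower and 2 higher in wt at 48 h, against 26.8% and 29.6% of all genes. Slfn5 was at -4.76 (SE 0.377), Slfn8 at -2.07 (SE 0.247) and Slfn3 at 1.83 (SE 0.278). Between KI and wt at 48 h, Slfn1 was higher by 1.55 (SE 0.361, edgeR adjusted p = 0.0194) and Slfn5 by 1.23 (SE 0.335, edgeR adjusted p = 0.045). The summed level of 7 other Schlafen genes already did not overlap in naive cells, at 875 to 1040 CPM in KI and 474 to 550 in wt. Over the 6 tested, the median difference between KI and wt was 0.64 in naive cells, 0.79 at 24 h and 0.84 at 48 h. In naive cells and at 24 h none was called. Several Schlafen genes are close copies of one another in a cluster, and how reads that fit more than 1 copy were counted is not given, so the values of single copies are uncertain.

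Of the PI3K, AKT and mTOR pathway, part of which acts on FOXO proteins, 18 genes were tested. In wt at 48 h 11 were lower and 4 higher, against 26.8% and 29.6% of all genes. Sgk1, a kinase that phosphorylates FOXO proteins, was lower at a log2 change of -5.44 (SE 0.435), Pik3cg at -1.07 (SE 0.153) and Rictor at -1.46 (SE 0.255), while Akt2 was higher at 0.45 (SE 0.0848). Between KI and wt at 48 h, Sgk1 alone was called, and was higher by 1.46 (SE 0.378, edgeR adjusted p = 0.0347). Of 26 other genes associated with quiescence, some of which are also among the targets or the pathway genes above, 21 were lower and 3 higher in wt at 48 h, with a median of -1.14. Zfp36l2, an RNA-binding protein gene, was at -2.74 (SE 0.223), the diacylglycerol kinase gene Dgka at -2.37 (SE 0.215) and Txnip, which limits glucose uptake, at -2.67 (SE 0.252), and the cell cycle inhibitor gene Cdkn2c was higher by 2.77 (SE 0.208). In KI cells at 48 h 3 of these 26 were higher than in wt and none lower, where 4.2% of all genes differed in either direction. They were Runx1 (1.01, SE 0.2, edgeR adjusted p = 0.00747), Zfp36l1 (0.66, SE 0.172) and Dgka (0.73, SE 0.205). Against the same wt libraries at 48 h, the median of the 26 was 0.30 in KI. It was 0.35 in the libraries labelled KO, with none called. The 12 activation and proliferation markers, such as Il2ra, Myc and Mki67, had 10 higher and 1 lower in wt at 48 h, and none was called between KI and wt at 24 h or 48 h, with medians of -0.42 and -0.22. Their summed level at 48 h did not overlap, at 4690 to 5400 CPM in KI and 6350 to 7660 in wt, and Gzmb, a cytotoxic granule gene, had 499 to 862 CPM in KI and 1780 to 2080 in wt (log2 change -1.46, SE 0.659, edgeR adjusted p = 0.25). Of the 12, Gzmb had the largest difference in mean CPM, at 706 in KI and 1940 in wt. Means were 347 in both for Myc and 530 and 529 for Tfrc. Cd44 and Cd69 had higher means in KI, and Il2ra, Mki67, Top2a, Mcm2, Ccnd2, Ccne1 and Slc7a5 lower ones. Gzmb was chosen after its values were seen, as were the single B and NK cell markers above. The part of this difference in the members' result was not tested.

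The members were compared in pairs across the 22 libraries and were not clustered. Pearson's r of log2 CPM was 0.96 between Klf2 and Klf3, 0.95 between Btg1 and Btg2 and 0.93 between Klf2 and Tob1, and 0.68 between Foxp1 and Slfn2. Klf2 had r of 0.66 with Klf4, 0.39 with Slfn2 and 0.20 with Foxp1. The highest r of any pair was 0.98, for Klf3 with Btg1 and for Tob1 with Btg2. These values describe libraries that share mice and times. Among 11371 genes with a mean of at least 1 CPM, the 3 most like Klf2 were Shisa5 (r 0.989), Osbpl5 (0.987) and Wbp1l (0.986), and the 3 most like Klf3 were Acp5 (0.992), Zfp652 (0.991) and S1pr1 (0.987). Klf4 was most like Junb (0.974), Ppp1r15a (0.968) and Rgs2 (0.965), the first 2 of which are on the list of immediate-early genes above. Btg1 was most like Sgk1 (0.990), Phf1 (0.984) and Etv3 (0.983), Btg2 like Ptpre (0.978), Cry2 (0.971) and Cerkl (0.971), and Tob1 like Cerkl (0.979), Elf2 (0.977) and Csrnp2 (0.977). Foxo1 was most like Rasgrp2 (0.986), Ggt1 (0.984) and Smarca2 (0.980), and Foxo3 like Napg (0.947), Sertad2 (0.942) and Trim13 (0.936). The closest genes to Foxp1 were Gbp4 (0.848), Cd274 (0.845) and Pgpep1l (0.820), and those to Slfn2 were Tapbp (0.932), Tgtp2 (0.927) and Stub1 (0.921).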

How the data were processed

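Bulk RNA of 22 libraries from 8 mice was analysed. Per the submitters' processing notes, the tools named were bcl2fastq 2.20.0, TopHat2 2.1.0, Bowtie2 2.2.5, SAMtools 0.1.19, featureCounts and DESeq2 1.6.3, with builds GRCm38 and mm10; per the labels, the kit was stranded and selects mRNA. The annotation and the counting's use of strand are not given in the sources used here. The deposited count table holds whole-number counts of 46603 genes. The authors' log2 normalized table was checked to be log2 of the count over 1 factor per library plus 1, for 21674 protein-coding genes. The deposited FPKM values were checked to equal the normalized count over a fixed length of each gene, and give levels only. A deposited log2 table of variance-stabilised values served as an alternative.

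Counts were tested with edgeR 4.0.16 (R 4.3.3): filterByExpr (minimum count 10, total 15), TMM scaling, and the quasi-likelihood F test on 8 group means with 14 residual degrees of freedom, adjusted by Benjamini-Hochberg over 21183 genes, at a threshold of 0.05. A standard error is the log2 fold change divided by the square root of F. Log2 CPM used a prior count of 2. Alternatives used DESeq2 1.42.0 and limma 3.58.1, other scalings, no filter, the compared groups alone, blocks, and left-out mice; robust estimation was added after seeing the data. The fit was tested on simulated data. Replicates are separate mice, per the labels.

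Labels name the mouse and the experiment, so equal numbers pair the samples. Deviations of KI and wt libraries of 1 experiment and time correlated with a median r of 0.22 (8 of 9 pairs over 0.1). Those of 1 mouse had 0.155 (19 of 20), against -0.0719 for other pairs at 1 time (8 of 42, r from -0.554 to 0.554). These other pairs include libraries labelled KO with KI or wt libraries of their own experiment. Deviations were taken from group means, so the kinds of pairs are not independent. The members and lists were chosen with earlier results of these data known, and 2 genes of the lists are not reported here. Named are all members, up to 3 called genes per list and direction with the smallest p, and the 3 genes with the highest Pearson r with each member. Positions are those of the deposited tables; GENCODE M21 held 99.6% of the listed genes. Promoters are from RefSeq.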

Additional observations from a re-analysis of the deposited data

How the results depend on the processing

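For 82 member values, 967 alternatives were run, and no value that passed the test changed direction. These were the changes from naive, KI against wt at 24 h and 48 h, and others with an unadjusted p under 0.05 in edgeR. Of the other 58 member values, some of which are given above, none was called and 21 changed sign in an alternative. The reversed values named below are among the 82. In the counts of members called, the main values held within 1.5 times except as follows. Between KI and wt at 48 h the count of 4 became 2 with the compared groups alone, and 0 to 4 on leaving out 1 mouse at a time. Between KI and wt at 24 h it was 1 with DESeq2's Wald test and 0 to 1 on leaving out mice (Klf2, without the wt mouse of experiment 5). The response difference at 48 h had 2 with the compared groups alone. For the libraries labelled KO against wt at 48 h it was 0 to 1 on leaving out mice. From 24 h to 48 h in KI it was 1 with limma and 0 to 1 on leaving out mice, and in wt it was 2 with the mouse as replicate block, 2 with limma, 4 with DESeq2's Wald test and 0 to 2 on leaving out mice. The cause of these moves was not tested. Runs that left out mice or fitted the compared groups alone also held fewer libraries. With the replicate block of experiment or mouse, 5 members were called between KI and wt at 48 h, 9 in wt at 48 h, 9 in KI at 24 h and 8 in the libraries labelled KO, each with Slfn2 added; the block changed no other call than that of Slfn2 from 24 h to 48 h in wt. Foxo1 lost its call in the libraries labelled KO when these were fitted alone (-1.10, edgeR adjusted p = 0.0623). Values that reversed were those of Foxo3 between KI and wt (-0.00 at 24 h with DESeq2 size factors or DESeq2's Wald test, and -0.02 to 0.11 at 24 h and -0.14 to 0.10 at 48 h on leaving out mice), Foxp1 (-0.05 in KI at 48 h and -0.02 in wt at 24 h with upper-quartile scaling, and -0.20 to 0.06 in the libraries labelled KO on leaving out mice) and Klf4 between KI and wt at 48 h (-0.32 to 0.09 on leaving out mice, among them 0.04 and 0.05); none had passed the test.

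Upper-quartile scaling moved the median of all genes in the changes from naive to between -0.16 and -0.26. The share of called genes that were higher went from 54.5% to 42.5% in wt at 24 h, from 52.5% to 41.7% in wt at 48 h, from 59.2% to 44.9% and from 54.6% to 42.9% in KI, and from 53.7% to 43.1% in the libraries labelled KO. Between KI and wt at 48 h, 889 genes were called in all, against 109 with the compared groups alone, 1697 with DESeq2 and 89 to 1278 on leaving out mice. The lowest count of any member in a library was 63 (Klf4), so depth limits Klf4 most.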
